A study of Homo sapiens with 21 samples.

Results

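The genes described here are the 37 genes of the human mitochondrial genome, chosen as all genes whose symbol starts with MT-. They are 13 protein-coding genes, 2 ribosomal RNA (rRNA) genes and 22 transfer RNA (tRNA) genes, out of 61541 genes in the gene count table. In the exon bin files, whose bins are the non-overlapping parts into which the exons of a gene are divided, the same 37 genes make up 33 of 57300 gene names and 41 of 685251 bins. The 13 protein-coding genes stand under 10 names there, because overlapping genes of one strand are joined under a single name.

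RNA was sequenced from K562, an established human erythroleukaemia line derived from chronic myeloid leukaemia, in 21 libraries that form 7 groups of 3. An experiment with gene counts for 9 libraries holds cells with empty vector, cells labelled MYB overexpression and cells labelled NMYB overexpression; MYB encodes a transcription factor of blood progenitors, the design text speaks of MYB and of an N-terminally truncated form, and no source used here spells out the label NMYB. In the other 2 experiments, with exon bin counts for 12 libraries, cells overexpressed 1 of the 2 enhancer RNAs (eRNAs) made by an enhancer upstream of MYB, labelled 34kn and 34kp. Each had its own control group, which the sample titles describe no further. The submitters' names for the deposited counts mark these controls WT and the overexpressing libraries OE. Whether the controls carried a vector is not stated. All groups were grown in the same medium, and the labels give neither vector type, number of clones, time after transfer of the construct nor the origin of the replicates. If these are not separate cultures, the spread behind each p-value may be technical.

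Human mitochondrial DNA is a small circle that is transcribed on both strands into long precursors by the polymerase POLRMT with its factors TFAM and TFB2M. Transfer RNA genes lie between most of the other genes, and the precursors are cut at the tRNAs, at their 5′ ends by a mitochondrial RNase P that contains TRMT10C and at their 3′ ends by ELAC2, which releases the rRNAs, the mRNAs and the tRNAs. The mRNAs encode core subunits of respiratory complex I (the MT-ND genes), complex III (MT-CYB), complex IV (the MT-CO genes) and ATP synthase (MT-ATP6 and MT-ATP8), and the rRNAs MT-RNR1 and MT-RNR2 belong to the small and the large mitochondrial ribosomal subunit. Because genes that share a precursor are made together, unequal levels of neighbouring genes are usually attributed to processing and stability of the RNA, with LRPPRC and SLIRP as a known mRNA-stabilising pair.

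On chromosome M of GRCh38, the plus strand of the reference carries 12 protein-coding genes, both rRNA genes and 14 tRNA genes, and the minus strand carries MT-ND6 and 8 tRNA genes. Every gene is a single exon. The protein-coding genes are between 207 and 1812 bases long with a GC content of 39.6% to 47.7%, and the tRNA genes between 59 and 75 bases with 23.1% to 49.3%. The annotated sequence of 6 protein-coding genes ends in an incomplete stop codon, which in mitochondria is completed when the poly(A) tail is added, and that of the other 7 in a complete one. The sequences of 3 tRNA genes and of a pair of gene junctions, which the results below turn on, are shown 5′ to 3′ on the strand of the gene, from the GENCODE 29 transcripts. The tRNAs are shown because MT-TQ rose with 34kp, MT-TS1 rose and MT-TC fell with MYB and NMYB, and the base at which MT-TC starts is also where MT-TY ends; in the junctions, capitals mark the first codon of MT-ATP6 and the stop codon of MT-ATP8 in the former, and the 7 bases that both genes hold in the latter.
MT-TQ (chrM:4329-4400, minus strand): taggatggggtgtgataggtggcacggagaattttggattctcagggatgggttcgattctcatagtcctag
MT-TS1 (chrM:7446-7514, minus strand): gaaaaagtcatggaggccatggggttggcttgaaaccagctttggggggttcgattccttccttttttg
MT-TC (chrM:5761-5826, minus strand): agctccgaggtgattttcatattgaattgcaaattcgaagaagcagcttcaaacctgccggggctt
MT-ATP8/MT-ATP6 overlap (chrM:8527-8572, plus strand): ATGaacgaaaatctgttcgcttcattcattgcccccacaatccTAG
MT-ND4L/MT-ND4 junction (chrM:10737-10789, plus strand): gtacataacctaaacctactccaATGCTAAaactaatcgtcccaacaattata

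The library totals were 16552237 to 24462819 gene counts and 36563252 to 41243796 bin counts, and since a read that crosses several bins can be counted in each, the 2 kinds of value are not compared. All 10 erythroid markers tested had a mean of at least 1 CPM, a count scaled to the size of its library in the gene table. Of the markers of other cell types, 2 of 5 lymphoid, 2 of 6 monocytic and granulocytic and 2 of 5 fibroblast genes did so, with CD3D, LYZ (32.3 CPM) and COL1A2 (7.26 CPM) the highest of each list, while MS4A1 (B cells) and ELANE (granulocytes) were at 0 in every library. MYB itself stood at 216, 210 and 219 CPM with empty vector, at 231, 228 and 222 CPM in the libraries labelled MYB overexpression and at 215, 202 and 217 CPM in those labelled NMYB overexpression. The log2 changes were 0.08 (adjusted p = 0.23) and -0.03 (adjusted p = 0.727), neither past the test. The 3 MYB libraries lay above the 3 empty-vector libraries by a small margin and the NMYB libraries overlapped them, so the directions below rest on the labels. The nuclear genome holds copies of mitochondrial genes, which were picked here by their symbols and not by gene type. In the gene table, the 106 copies with counts held 0.9% to 1.2% as many counts as the mitochondrial genes. They were led by MTATP6P1 with 7694 to 12589 counts. Reads that fit both a gene and a copy cannot be told apart.

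Mitochondrial genes took 5.62% to 7.17% of all gene counts, and their share was lower in the libraries labelled MYB or NMYB overexpression than with empty vector. With empty vector the share was 7.17%, 6.63% and 6.81% (6.87% ± 0.275, SD, n = 3). It was 6.19%, 6.21% and 5.94% with MYB overexpression (6.11% ± 0.152) and 6.22%, 5.62% and 6.25% with NMYB overexpression (6.03% ± 0.353). All 6 overexpression libraries were below all 3 empty-vector libraries. By class, the protein-coding genes fell from a mean of 6.15% to 5.53% and 5.44%, the rRNAs from 0.683% to 0.556% and 0.558%, and the tRNAs from 0.0327% to 0.0281% and 0.0273%. In bulk RNA, fewer cells of a kind and less RNA per cell cannot be told apart.

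**Figure D1:**
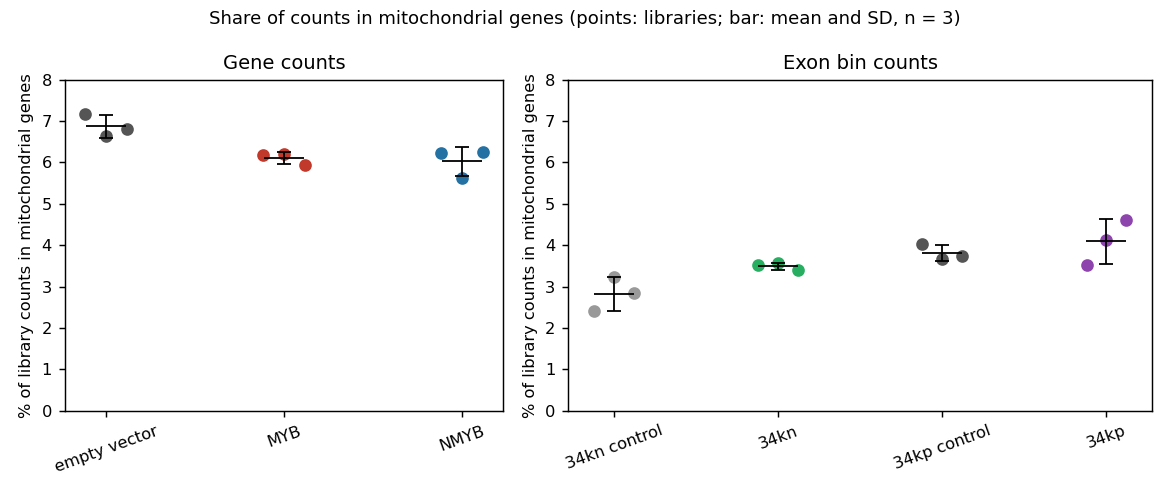
Share of library counts in mitochondrial genes, in percent, for the gene counts (left) and the exon bin counts (right); points are libraries, the black bar is the mean with its SD, n = 3. The 6 libraries labelled MYB or NMYB overexpression lie between 5.62% and 6.25%, below the empty-vector libraries at 6.63% to 7.17%, and 34kn control 1 is lowest of the bin libraries at 2.41%.

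Per kilobase of gene, the complex IV mRNAs led with empty vector. MT-CO2 stood at 12420 ± 685.4 CPM per kb, MT-CO3 at 10730 ± 378.4 and MT-CO1 at 9654 ± 324.7. They were followed by MT-ND4L at 8596 ± 489.2 and by MT-ND4 at 6662 ± 444.5 and MT-ATP6 at 6628 ± 235.1, whose libraries overlapped. The middle of the order was MT-ND2 (3948 ± 134.5 CPM per kb), MT-RNR2 (3592 ± 183.0), MT-ATP8 (3156 ± 225.0) and MT-ND1 (2589 ± 22.52). At the low end, MT-ND3 (2162 ± 117.7) and MT-CYB (2055 ± 55.28) overlapped, ahead of MT-ND5 (1917 ± 80.82), MT-RNR1 (1394 ± 143.6) and MT-ND6 (1152 ± 44.17), the only mRNA read from the minus strand. Neighbours other than the 2 pairs named did not overlap between libraries. Whether poly(A) RNA was selected is not given, so the places of the rRNAs hold for these libraries and not for the cell. MT-ATP8 was divided by its full length, of which it shares 46 bases with MT-ATP6, and the effect on its place was not tested.

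The order changed at the top with overexpression. In the libraries labelled MYB overexpression MT-CO3 (9733 ± 196.9 CPM per kb) and MT-CO2 (9378 ± 594.3) overlapped, as they did with NMYB (9727 ± 984.3 and 9755 ± 404.6). MT-CO2 was thus no longer apart from MT-CO3. MT-ND3 overlapped its neighbour MT-ND1 in both overexpression groups and did not with empty vector.

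**Figure D2:**
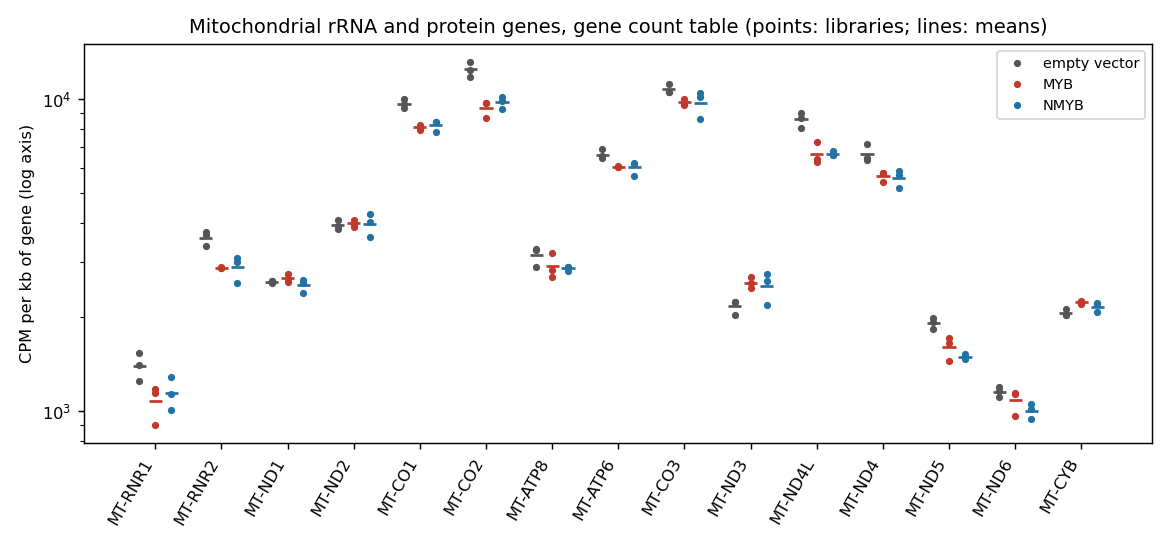
Level of the 15 rRNA and protein-coding mitochondrial genes in CPM per kb of gene (log axis), in genome order; points are libraries and lines are group means. MT-CO2, MT-CO3 and MT-CO1 are the 3 highest genes in each group, and the empty-vector points of MT-CO2, MT-ND4L and MT-ND5 lie above those of both overexpression groups.

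In the libraries labelled MYB overexpression, MT-CO1 and MT-CO2 of complex IV, MT-ND4L, MT-ND4 and MT-ND5 of complex I, MT-ATP6, the large rRNA and the tRNAs MT-TC and MT-TP fell against empty vector, while MT-ND3, MT-CYB and MT-TS1 rose. Of the 30 mitochondrial genes with enough counts to be tested, 3 rose and 9 fell in edgeR's quasi-likelihood test at a Benjamini-Hochberg adjusted p below 0.05. Over all 15823 genes tested, 9.62% rose and 12.7% fell, 22.3% in all. The 7 genes not tested are tRNA genes, so the tested tRNAs are those with more counts. The median log2 change was -0.134 over the 30 genes and 0.005 over all genes tested, and 20 of the 30 values were below 0.

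Among complex IV genes, MT-CO2 (ENSG00000198712, chrM:7586-8269), which encodes the copper-binding subunit that takes electrons from cytochrome c, stood at 8970, 8033 and 8477 CPM with empty vector and at 6643, 6656 and 5946 CPM with MYB. The groups did not overlap, and the log2 change was -0.40 (SE 0.0479, adjusted p = 1.01e-05), a fall of 24.5%, and the 95% interval of the fold ran from 0.704 to 0.810. MT-CO1, the catalytic subunit, went from 15420, 14430 and 14810 CPM to 12680, 12530 and 12270 CPM (log2 change -0.25, adjusted p = 5.26e-05), again without overlap. MT-CO3, a structural subunit, was lower in all 3 MYB libraries but did not pass the test (log2 change -0.14, adjusted p = 0.0972).

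Among complex I genes, MT-ND4L went from 2679, 2394 and 2585 CPM to 2160, 1912 and 1858 CPM, a log2 change of -0.37 (SE 0.0507, adjusted p = 4.56e-05). MT-ND4, whose start lies within MT-ND4L, changed by -0.23 (adjusted p = 0.00372) and MT-ND5 by -0.26 (adjusted p = 0.00107). In these 3 genes every MYB library was below every empty-vector library. MT-ND3 (ENSG00000198840, chrM:10059-10404), a short complex I subunit that lies directly upstream of MT-TR and MT-ND4L, moved the other way. It stood at 770.2, 700.9 and 772.6 CPM with empty vector and at 888.8, 859.6 and 927.4 CPM with MYB, a log2 change of 0.25 (SE 0.0723, adjusted p = 0.0253). MT-ND1, MT-ND2 and MT-ND6 did not pass, with log2 changes of 0.04, 0.01 and -0.09.

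MT-CYB, the only complex III subunit encoded in mitochondria, stood at 2418, 2306 and 2312 CPM with empty vector and at 2566, 2544 and 2506 CPM with MYB (log2 change 0.11, adjusted p = 0.0283). MT-ATP6, the proton channel subunit of ATP synthase, changed by -0.13 (adjusted p = 0.0251), and MT-ATP8, which overlaps it, had a log2 change of -0.12 that did not pass (adjusted p = 0.178). Groups did not overlap for MT-CYB or MT-ATP6 and did for MT-ATP8. Several of these calls rested on single libraries. MT-ATP6 lost its call without any 1 of the 6 libraries compared (adjusted p from 0.0563 to 0.25) and in DESeq2 (0.0609). MT-CYB lost it without empty vector 2 (0.0867) or 3 (0.0982) and without MYB 1 (0.103) or 3 (0.0556), and MT-ND3 lost it without empty vector 2 (0.054) and without MYB 1 (0.0633) or 3 (0.106).

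The large rRNA, MT-RNR2, stood at 5830, 5281 and 5688 CPM with empty vector and at 4517, 4466 and 4460 CPM with MYB. The groups did not overlap, and the log2 change was -0.32 (SE 0.0572, adjusted p = 0.00113). MT-RNR1, the small rRNA, was also lower in all 3 MYB libraries (log2 change -0.38, SE 0.138), with an adjusted p of 0.0994 in edgeR and 0.0487 in DESeq2. The ratio of MT-RNR2 to MT-RNR1 counts was 4.35, 4.44 and 3.89 with empty vector, 4.15, 3.98 and 5.2 with MYB and 3.94, 4.18 and 4.35 with NMYB, so the ratio overlapped between all 3 groups.

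Of the 22 tRNAs, 15 were tested; 1 rose and 2 fell with MYB. MT-TC, the cysteine tRNA, went from 161.9, 149.5 and 147.0 CPM to 118.5, 109.8 and 131.4 CPM (log2 change -0.35, adjusted p = 0.000954). MT-TP, the proline tRNA, changed by -0.25 (adjusted p = 0.00229). For both tRNAs the groups did not overlap. MT-TS1, a serine tRNA next to MT-CO1 on the other strand, had 12, 10 and 6 counts with empty vector and 22, 23 and 18 with MYB, a log2 change of 0.91 (SE 0.311, adjusted p = 0.0407). Counts this low limit the precision, and the MT-TS1 call with MYB was lost in DESeq2 (adjusted p = 0.12) and without any 1 of the 6 libraries compared (0.0528 to 0.16).

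**Figure D3:**
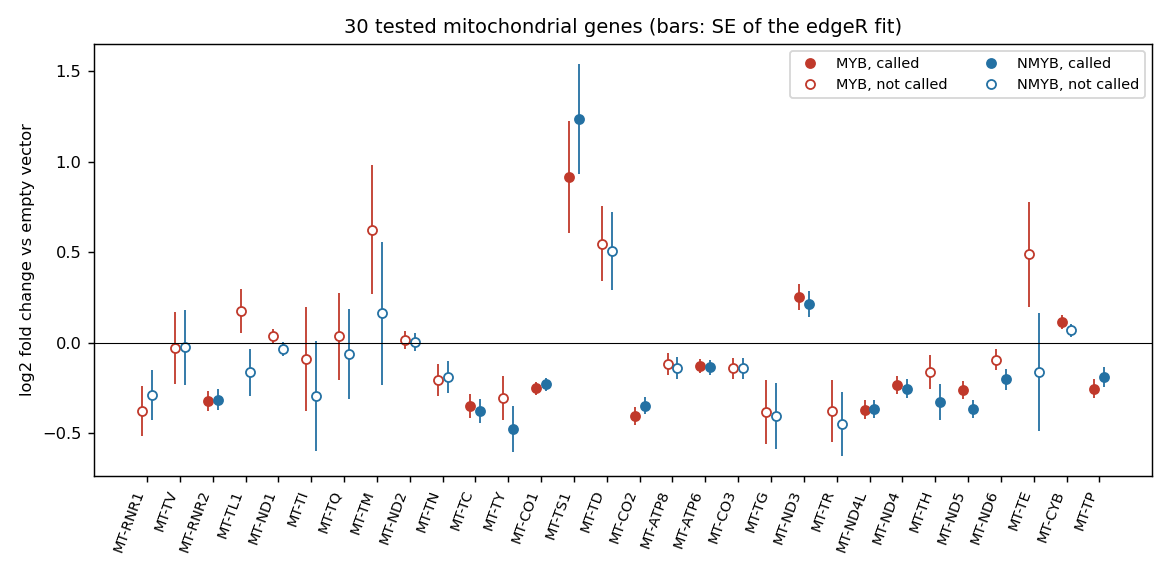
Log2 fold change against empty vector for the 30 tested mitochondrial genes in genome order, with the SE of the edgeR fit; filled points passed an adjusted p below 0.05. Most filled points lie between -0.48 and -0.13, and MT-TS1 is highest, at 0.91 for MYB and 1.24 for NMYB; the empty-vector libraries are the same 3 in each comparison.

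With NMYB overexpression, set against the same 3 empty-vector libraries, 2 of the 30 mitochondrial genes rose and 12 fell. Over all genes tested 12.6% rose and 12.4% fell, 24.9% in all. The median log2 change was -0.188 over the 30 genes and 0.008 over all genes tested. Because the comparisons share their controls, a likeness between them is not independent evidence, and the values are given side by side only.

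Among the mRNAs, MT-ND5, a proton-pumping subunit of complex I, stood at 3603, 3314 and 3503 CPM with empty vector and at 2689, 2659 and 2746 CPM with NMYB, a log2 change of -0.36 (SE 0.0496, adjusted p = 4.56e-05) beside -0.26 with MYB. MT-ND4L changed by -0.37 (adjusted p = 5.33e-05), MT-CO2 by -0.35 (5.45e-05), MT-CO1 by -0.23 (0.000152), MT-ND4 by -0.25 (0.00187) and MT-ATP6 by -0.14 (0.016). Of these 5 genes, every NMYB library was below every empty-vector library. MT-ND6, read from the minus strand, went from 607.9, 580.5 and 626.6 CPM to 551.5, 495.3 and 531.4 CPM (log2 change -0.20, adjusted p = 0.0185), beside -0.09 with MYB. MT-ND3 rose by 0.22 (adjusted p = 0.048), with libraries at 947.0, 753.1 and 904.4 CPM that overlapped the empty-vector libraries, and MT-CYB had a log2 change of 0.07 that did not pass (0.174).

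MT-RNR2 fell to 4819, 4008 and 4682 CPM (log2 change -0.31, adjusted p = 0.00122), without overlap with empty vector. Of the 15 tested tRNAs, 4 fell and 1 rose with NMYB. MT-TC changed by -0.38 (adjusted p = 0.000493), the tyrosine tRNA MT-TY by -0.48 (0.0103), the histidine tRNA MT-TH by -0.33 (0.0197) and MT-TP by -0.19 (0.0172). MT-TS1 had 24, 16 and 27 counts, above the 12, 10 and 6 of empty vector, a log2 change of 1.24 (SE 0.305, adjusted p = 0.00601). Leaving out empty vector 1 ended the calls of MT-TY (adjusted p = 0.096), MT-ATP6 (0.112), MT-TH (0.163) and MT-TP (0.0989). MT-ND6 lost its call without empty vector 3 (0.0683), without NMYB 2 (0.106) and after removal of each library's GC trend (0.127), which also ended that of MT-TP (0.103). MT-ND3 lost it in 7 of 9 fits with a library left out (without empty vector 2 or 3, NMYB 1 or 3, or any MYB library, adjusted p from 0.0659 to 0.183). After removal of the GC trend 4 mitochondrial genes rose and 10 fell, among 5138 genes called in all.

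Markers of other cell types moved between these groups as well. The summed lymphoid markers ranged from 35.9 to 37.1 CPM with empty vector, 16.2 to 17.6 CPM with MYB and 19.4 to 20.9 CPM with NMYB. The monocytic and granulocytic markers ranged from 25.1 to 29.9, 33.8 to 38.7 and 38.3 to 40.9 CPM, the fibroblast markers from 11.5 to 11.9, 8.82 to 9.36 and 9.39 to 10.2 CPM, and the erythroid markers from 2100 to 2140, 1860 to 1910 and 1920 to 1930 CPM. The part of these shifts in the mitochondrial values was not tested.

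Set against each other, the libraries labelled NMYB and MYB overexpression differed in 0 of 30 mitochondrial genes in edgeR, with 3 genes at an unadjusted p below 0.05 and 0 calls in DESeq2. Of all genes tested, 1.14% were called in edgeR, and DESeq2 called 401 genes. Log2 differences (NMYB minus MYB) ranged from -0.65 for MT-TE, the glutamate tRNA, to 0.32 for MT-TS1. For the 13 protein-coding genes they ranged from -0.11 to 0.06. The 95% interval of the fold was 0.865 to 0.9995 for MT-ND5, 0.852 to 1.01 for MT-ND6 and 0.970 to 1.12 for MT-CO2, and differences within these intervals are not shown to be absent.

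Nuclear genes that act on mitochondrial genes were given in 5 lists. Over the lists together, 18 of 90 tested genes were called with MYB and 24 of 90 with NMYB. In either direction, these shares were near the 22.3% and 24.9% of all genes called. By direction, 9.62% of all genes rose and 12.7% fell with MYB, and 12.6% rose and 12.4% fell with NMYB. More of the called list genes rose than fell, except among the nuclear regulators, and this split was not tested. The counts below are descriptions of the lists and not results about them. Of 18 tested genes of mitochondrial transcription and DNA maintenance, 3 rose and 1 fell with MYB and 4 rose and 1 fell with NMYB. Median log2 changes of this list were 0.057 and 0.051, beside 0.005 and 0.008 over all genes. TFB2M, the transcription initiation factor, stood at 69.0, 67.0 and 69.9 CPM with empty vector, at 80.8, 78.6 and 82.8 CPM with MYB (log2 change 0.23, adjusted p = 0.00763) and at 84.8, 72.8 and 85.0 CPM with NMYB (0.24, adjusted p = 0.00646). TFAM, which packages mitochondrial DNA, changed by 0.19 with MYB (adjusted p = 0.0164) and had a value of 0.04 with NMYB (0.623). POLRMT had a log2 change of 0.25 with MYB (0.2) and rose by 0.41 with NMYB (0.0425).

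Of 36 genes of mitochondrial RNA processing, stability and modification, 6 rose and 0 fell with MYB and 8 rose and 1 fell with NMYB. SLIRP rose by 0.28 (adjusted p = 0.00265) and 0.39 (0.000143), from 44.1, 45.5 and 43.7 CPM to 49.7, 54.9 and 57.9 CPM and 58.4, 60.6 and 56.3 CPM. Its partner LRPPRC had log2 changes of -0.02 (0.744) and -0.11 (0.0648). MRM2, a methyltransferase of the large mitochondrial rRNA, rose by 1.36 (0.00681) and 1.44 (0.00465), from at most 0.515 CPM to at least 0.909 CPM in each overexpression library. Of 13 translation factors, 1 rose with MYB and 3 with NMYB, led by TACO1, an activator of MT-CO1 translation, with 1.00 (0.012) and 1.49 (0.000814).

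Of 9 nuclear regulators of mitochondrial genes tested, 2 fell with MYB, and 1 rose and 2 fell with NMYB. PPARGC1B, a coactivator of mitochondrial genes, fell by 0.22 (adjusted p = 0.00663) and by 0.40 (3.02e-05) on the log2 scale, and TFEB, a regulator of lysosomal genes, by 0.92 (0.00184) and 0.72 (0.0102). Of 14 markers of mitochondrial mass and import, 5 rose and 0 fell with MYB and 4 rose and 0 fell with NMYB, among them the import receptor TOMM22 (0.29 and 0.20) and the inner membrane prohibitin PHB2 (0.16 and 0.25). Between NMYB and MYB, 0 of the 90 tested genes of the 5 lists were called in edgeR, with 16 at an unadjusted p below 0.05.

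In the eRNA experiments, mitochondrial genes took 2.41% to 4.62% of bin counts. The share was 2.41%, 3.24% and 2.84% in the 34kn controls and 3.52%, 3.56% and 3.39% with 34kn (3.49% ± 0.0885, n = 3). All 3 34kn libraries were above their controls, and the controls spread over a wider range (SD 0.412) than the 34kn libraries. It was 4.02%, 3.66% and 3.74% in the 34kp controls and 3.53%, 4.12% and 4.62% with 34kp, which overlapped. The ratio of MT-RNR2 to MT-RNR1 counts was 16.0, 15.4 and 14.5 in the 34kp controls and 16.7, 17.3 and 19.1 with 34kp, without overlap. In the 34kn experiment it was 10.4, 7.38 and 7.26 in the controls and 11.6, 9.25 and 11.4 with 34kn, which overlapped. These ratios were not tested, and neither rRNA was called in either experiment.

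With 34kn, 0 of 19 tested mitochondrial names were called in edgeR, 9 had an unadjusted p below 0.05 and DESeq2 called 5, all higher. Over all 16116 names, edgeR called 0%, and DESeq2 called 1280 names. The median log2 change was 0.202 over the 19 names and 0.002 over all names. MT-ND4L+MT-ND4 stood at 4284, 6228 and 5020 CPM in the controls and at 6963, 7141 and 6402 CPM with 34kn (log2 change 0.39, SE 0.116, adjusted p = 0.105). MT-ND2, a complex I subunit, stood at 1414, 1890 and 1673 CPM and at 2069, 2130 and 2059 CPM (0.32, adjusted p = 0.0768). The name that joins MT-ATP8, MT-ATP6 and MT-CO3 had a log2 change of 0.30 (adjusted p = 0.0715). For 6 of the 10 protein-coding names every 34kn library was above every control. The shares of all tested names that separated in this way, or had an unadjusted p below 0.05, are not given here for any comparison. MT-ND3 was the only 1 of the 10 with a value below 0 (log2 change -0.21, adjusted p = 0.345).

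The 34kn controls differed among themselves, and the number of calls changed with the control left out. Control 1 was lowest and control 2 highest for MT-CO1 (4380 and 6402 CPM), MT-CO2 (2464 and 3335 CPM) and MT-ND1 (621.6 and 801.1 CPM), while for MT-TC+MT-TY control 1 was highest (343.5 CPM) and control 2 lowest (165.0 CPM). Without 34kn control 2, 9 mitochondrial names rose and 2 fell, MT-ND3 by 0.32 (adjusted p = 0.0439) and MT-TC+MT-TY by 0.72 on the log2 scale (0.00289), and 2982 names were called in all. Without control 1, 5 rose, among 447 names called in all, and with no filter on low counts 8 rose, among 1572.

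With 34kp, 3 of 17 tested mitochondrial names rose and 0 fell in edgeR, 8 had an unadjusted p below 0.05 and DESeq2 called 4. Over all 16662 names tested 0.63% rose and 1.72% fell in edgeR, 2.35% in all, and DESeq2 called 976 names. The median log2 change was 0.206, beside -0.005 over all names, and 16 of 17 values were above 0. MT-TQ (ENSG00000210107), the glutamine tRNA shown above, stood at 2.822, 2.302 and 2.944 CPM in the controls, from 119, 95 and 120 counts, and at 5.318, 6.373 and 6.208 CPM with 34kp, from 218, 266 and 236 counts. The groups did not overlap, and the log2 change was 1.14 (SE 0.165, adjusted p = 0.00612), a fold of 2.21 with a 95% interval of 1.72 to 2.84.

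MT-ND1, which lies upstream of MT-TQ on the plus strand and encodes the quinone-site subunit of complex I, stood at 789.6, 716.6 and 847.2 CPM in the controls and at 1014, 1089 and 1175 CPM with 34kp (log2 change 0.47, SE 0.0792, adjusted p = 0.0119). MT-ND3 stood at 139.5, 119.9 and 142.2 CPM and at 178.1, 176.4 and 203.4 CPM (log2 change 0.47, SE 0.0906, adjusted p = 0.0233). All 34kp libraries were above all controls for both genes. The joined MT-ATP8+MT-ATP6+MT-CO3 had a log2 change of 0.34 with no overlap and did not pass (adjusted p = 0.0723). MT-CO1, MT-CO2 and MT-ND4L+MT-ND4 had values of 0.03, 0.10 and 0.06, each with overlapping groups.

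The calls with 34kp depended on single libraries. Without 34kp control 2 or without 34kp 2, 0 mitochondrial names were called, among 46 and 58 names called in all, and the adjusted p of MT-TQ was then 0.0579 and 0.0532 at log2 changes of 1.04 and 1.11. Without 34kp control 1, 1 mitochondrial name was called, among 139 in all, and without 34kp 1, 6 were, among 614. After removal of each library's GC trend 8 rose, among 1789 names called in all. The share of reads called ambiguous in the deposited files was 0.0215% to 0.0225% in the 34kp libraries and 0.0158% to 0.0171% in their controls, and its part in the result was not tested.

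**Figure D4:**
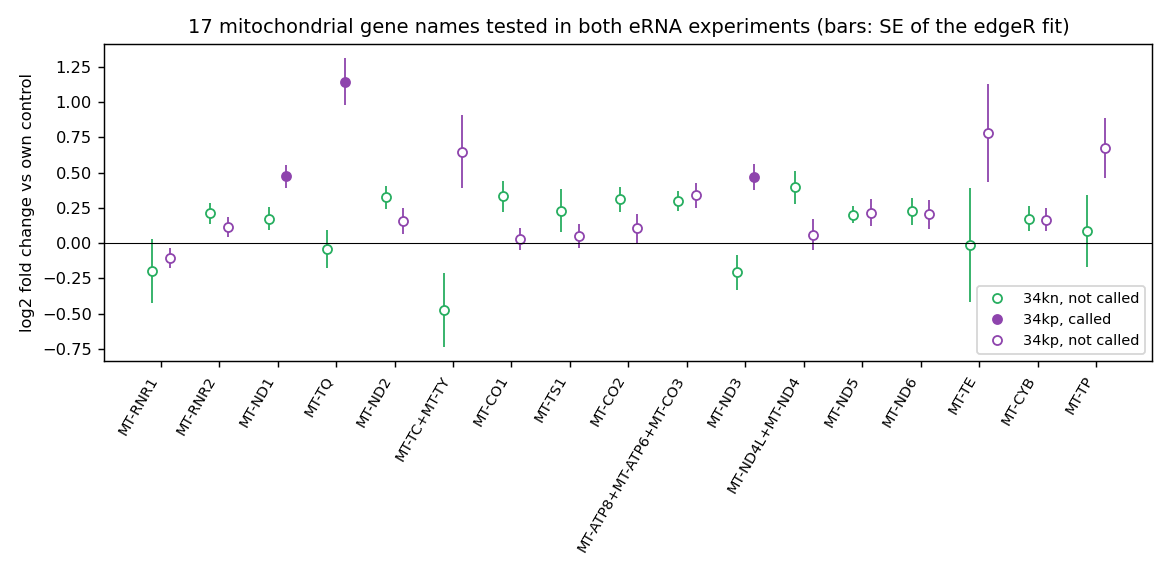
Log2 fold change against the own control for the 17 mitochondrial names tested in both eRNA experiments, in genome order, with the SE of the edgeR fit; filled points passed an adjusted p below 0.05. The 3 filled points are MT-TQ (1.14), MT-ND1 (0.47) and MT-ND3 (0.47) with 34kp, and no 34kn point is filled.

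A test of the difference between the effects, 34kp minus 34kn over all 12 libraries, called 2 of 20 mitochondrial names, against 6.36% of all 17323 names tested. MT-TQ differed by 1.18 (SE 0.199, adjusted p = 0.00423). Its level was 5.939, 5.468 and 5.361 CPM in the 34kn controls and 5.793, 5.258 and 5.316 CPM with 34kn, so the 34kp controls at 2.302 to 2.944 CPM were the low group among the 4 and the 34kp libraries were near the 34kn experiment. MT-ND3 differed by 0.67 (SE 0.163, adjusted p = 0.0266), with 378.3, 253.1 and 285.6 CPM in the 34kn controls and 272.4, 251.9 and 275.0 CPM with 34kn, all above the 176.4 to 203.4 CPM of the 34kp libraries. The call of MT-ND3 was lost without any 1 of the 34kn libraries (adjusted p from 0.0536 to 0.0744), without 34kp control 1 (0.0519) or 2 (0.0827) and with the GC trend removed (0.0601). Without 34kn control 2, 4 mitochondrial names were called, and the total over all names in that fit is not given here.

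The regulators listed above were mostly in names of their own in the bin files. With 34kn 0 of the 70 tested were called in edgeR, beside 0% of all names, with 22 at an unadjusted p below 0.05. For 34kp, 3 of 70 were called, beside 2.35% of all names tested. The test of the difference called 7 of 70, beside 6.36% of all names tested. The genes named below describe the lists and are not results about them. With 34kp, TRMT10C, the RNase P subunit that acts on tRNA 5′ ends, was the 1 of 27 RNA processing genes called, at 36.1, 35.2 and 37.8 CPM in the controls and 47.5, 46.8 and 51.5 CPM with 34kp (log2 change 0.41, adjusted p = 0.0355). Of 7 nuclear regulators, PPRC1 (0.44, adjusted p = 0.0349) and PPARGC1B (0.42, 0.0385) rose. POLRMT, TFAM and TFB2M had values of 0.13 (0.473), 0.26 (0.19) and 0.45 (0.0674) with 34kp and of -0.24 (0.0851), 0.14 (0.233) and 0.11 (0.438) with 34kn. LRPPRC had 0.17 (0.445) and 0.23 (0.111), and SLIRP has no value of its own in the bin files. The test of the difference called TWNK, the mitochondrial helicase (0.75, adjusted p = 0.0131), the RNA processing genes ELAC2 (0.36, 0.0397), TRUB2 (0.48, 0.0397) and PUS1 (0.61, 0.0415), and MYC, PPRC1 and PPARGC1B (0.36, 0.47 and 0.41).

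Transfer RNA counts differed by strand in the bin files. Of the 14 plus-strand tRNA genes, 7 were at 0 in all 12 libraries (MT-TV, MT-TK, MT-TG, MT-TR, MT-TH, MT-TS2 and MT-TL2), and all 14 together had 4 to 49 counts per library. The 7 minus-strand names together had 17082 to 32939, of which MT-TS1 had 9116 to 19869 and MT-TC+MT-TY 5314 to 15819, while MT-TN was at 0 in all 12 libraries. In the gene table all 22 tRNA genes had counts. The plus-strand genes there had 461 to 894 counts per library and the minus-strand genes 3714 to 6265. There MT-TC (1783 to 3235), MT-TP (1005 to 1516) and MT-TN (792 to 1325) led and MT-TS1 had 6 to 27. MT-TS1 and MT-TN thus took opposite places in the files, which differ in aligner and counting. The strand setting of the counting is not given in the sources used here, so reads from a tRNA gene and from the precursor of the other strand cannot be told apart.

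The joined names also hold bins at the gene junctions shown above. The 46-base bin that MT-ATP8 and MT-ATP6 share had 39643 to 78340 counts per library, 114% to 119% of the count of the 161-base bin of MT-ATP8 alone. The 7-base bin that MT-ND4L and MT-ND4 share had 11490 to 28002 counts, 30.3% to 39.3% of the MT-ND4L bin. The single base that MT-ATP6 and MT-CO3 share had 3726 to 9619 counts, 4.33% to 8.13% of the MT-ATP6 bin and 5.19% to 8.9% of the MT-CO3 bin. A read is counted in such a 1-base bin only when it covers that base. These counts are thus of reads that cross between MT-ATP6 and MT-CO3 or that start or end at the base, and the counts do not separate these. The base that MT-TC and MT-TY share had 99.8% to 100% of the count of the MT-TC bin, so nearly as many reads were counted on the junction as on MT-TC.

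**Figure D5:**
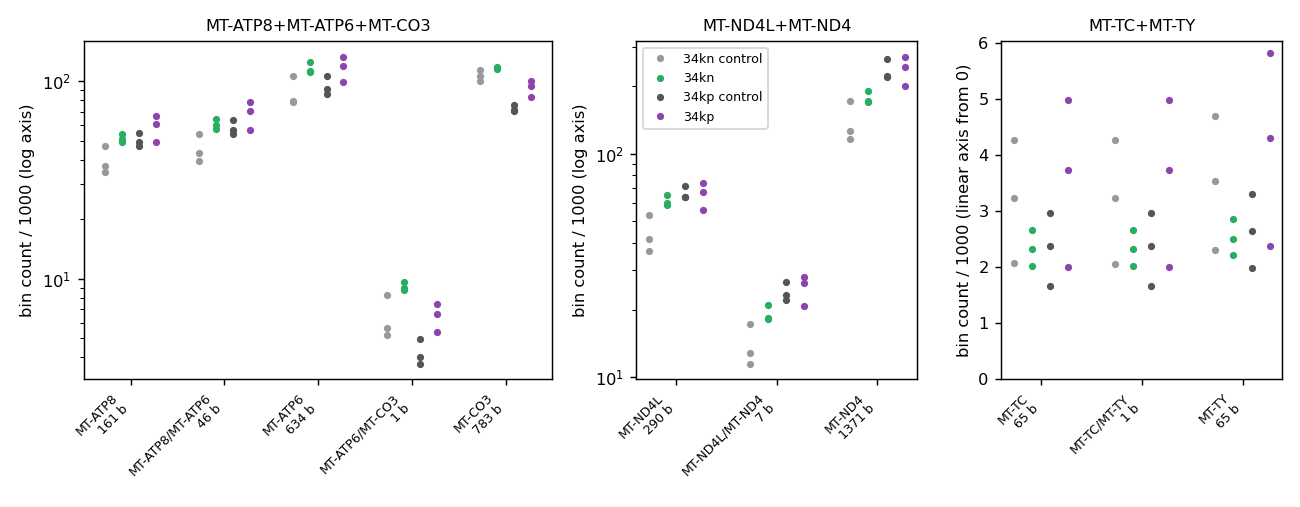
Counts (divided by 1000) of the 11 bins of the 3 joined names in the 12 eRNA libraries, with the length of each bin in bases (b) under its genes; the first and second panels have log axes and the third a linear axis from 0. The 1-base MT-ATP6/MT-CO3 bin is the lowest of its name at 3726 to 9619 counts, and the 1-base MT-TC/MT-TY bin matches the MT-TC bin.

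Relative use of these bins was compared within each name with edgeR's exon usage test. In the 34kn experiment 0 of 11 bins were called and 0 had an unadjusted p below 0.05, beside 0.795% of all bins tested that were called. In the 34kp experiment 0 of 11 were called and 1 had an unadjusted p below 0.05, beside 0.00862%. The MT-ATP6/MT-CO3 bin had the lowest p of the 11 in both experiments. Its use changed by a log2 value of 0.22 with 34kp (unadjusted p = 0.0426, adjusted p = 1) and of 0.15 with 34kn (unadjusted p = 0.1, adjusted p = 0.709). As a share of the MT-ATP6 bin, the MT-ATP6/MT-CO3 bin was 4.71%, 4.33% and 4.39% in the 34kp controls and 5.45%, 5.59% and 5.59% with 34kp, without overlap. As a share of the MT-CO3 bin it was 6.95%, 5.28% and 5.3% and 5.7%, 6.6% and 8.9%, which overlapped. In the 34kn experiment the share of the MT-ATP6 bin was 6.56%, 7.79% and 7.13% in the controls. With 34kn it was 8.13%, 7.74% and 7.82%, which overlapped. The share of the MT-CO3 bin was 5.19%, 7.34% and 5.29% in these controls and 7.66%, 8.27% and 7.62% with 34kn, without overlap. Shares of other junction bins separated as well, and how many did so is not counted here. The MT-ATP8/MT-ATP6 bin, as a share of the MT-ATP6 bin, was lower in every 34kp library than in every 34kp control. These shares were not tested beyond the usage test.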

How the data were processed

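The 37 mitochondrial genes, the gene lists and the tests were chosen with earlier results of these data known. The authors deposited raw counts: 1 table of gene counts for 9 libraries and 1 file of exon bin counts for each of 12 libraries. The tools named, per the submitters' processing notes, are Trimmomatic 0.93 for all libraries, STAR 2.7.10a for those with bin counts, and HISAT2 2.2.1 with featureCounts 2.0.1 for the gene table, and the genome build is GRCh38. Per the labels' protocols, a TruSeq RNA kit was used on 1 µg of total RNA. Whether poly(A) RNA was selected, the annotation release, the strand setting and the handling of multi-mapping reads are not given in the sources used here.

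Bin counts were summed per gene name, and lines that name no bin were left out. The test was edgeR's (4.0.16, under R 4.3.3) robust, two-sided quasi-likelihood F test with TMM scaling and a filterByExpr minimum count of 10, over all genes, with Benjamini-Hochberg adjustment and a threshold of 0.05. The 9 gene table libraries were fitted together, each eRNA experiment on its own 6 libraries, and the difference of the eRNA effects over all 12. Exon usage was tested with edgeR's diffSpliceDGE; DEXSeq, which the series' design text mentions, was not run. Levels are CPM scaled by TMM, and fold intervals cover 95%. Alternatives were DESeq2 1.42.0, other scalings, no filter, a GC trend removed per library (GC known for 97.6% and 97.2% of tested genes), the replicate number as a block and leaving out each library. The edgeR fit and the exon usage test were tried on simulated counts with the same spread for every gene, unlike the real libraries. DESeq2 and the other alternatives were not tried in this way. All 37 genes could be named, as could POLRMT, TFAM, TFB2M, LRPPRC, SLIRP and, in each comparison, up to 3 called genes of a list with the largest change.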

Additional observations from a re-analysis of the deposited data

Results flagged for a closer look

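The effect of 34kp minus that of 34kn was called by edgeR for 2 of 20 mitochondrial names tested. The log2 difference of MT-TQ was 1.18 (adjusted p = 0.00423). It was higher with 34kp in 3 of 3 libraries, while 34kn libraries overlapped their controls. Its call was kept in all 20 alternative fits. MT-ND3 differed by 0.67 (adjusted p = 0.0266), with values of 0.47 in the 34kp experiment and -0.21 in the 34kn experiment. For both genes the 34kp controls were the lowest of the 4 groups.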

How the results depend on the processing

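No alternative reversed a called mitochondrial gene. The number called with MYB stayed between 9 and 14 with 1 library left out and between 11 and 15 otherwise (12 as reported). With NMYB it stayed between 10 and 15 and between 13 and 18 (14 as reported). Over all genes, 2491 to 5151 were called with MYB in these fits (3529 as reported) and 2711 to 5173 with NMYB (3945 as reported). NMYB against MYB gave 0 mitochondrial genes in every fit. MT-RNR2, MT-TC, MT-CO1, MT-CO2, MT-ND4L, MT-ND4 and MT-ND5 kept their calls in all 18 alternatives with both MYB and NMYB. With 34kn, where 0 names were called, DESeq2 called 5, no filter on low counts gave 8, and leaving out 1 library gave 0 to 11. With 34kp, where 3 were called, a removed GC trend gave 8 and leaving out 1 library gave 0 to 6. The difference of the eRNA effects, with 2 called, gave 6 with no filter, 1 with the GC trend removed and 1 to 4 with 1 library left out. The totals over all names in these fits of the difference are not given here, so these counts are descriptions only. Correlations of deviations between libraries with the same replicate number ranged from -0.185 to 0.117, so the numbers, taken from the sample titles, were not held to pair libraries. With the replicate number as a block, 14 genes were called with MYB, 17 with NMYB, 0 between them, 0 with 34kn, 1 with 34kp (MT-TQ; adjusted p was 0.0602 for MT-ND1 and 0.102 for MT-ND3) and 1 for the difference (MT-TQ; 0.067 for MT-ND3). The rRNA share of the 34kp controls was 0.377% of the TMM-scaled library size against 0.392% of counts. The cause of these changes was not tested. Low counts limit the tRNAs: 7 of 22 in the gene table were not tested.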

Other observations

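The sign of the mRNA changes was set beside the annotated gene ends, a feature noticed after the values were seen and not tested. With MYB overexpression, MT-ND1, MT-ND2, MT-ND3 and MT-CYB were the 4 protein-coding genes with a log2 change above 0, and all 4 are among the 6 whose annotated sequence ends in an incomplete stop codon; the other 2 of these, MT-CO3 and MT-ND4, had values of -0.14 and -0.23. The 7 genes with a complete stop codon all had values below 0, from -0.40 to -0.09. Neither MT-ND1 (0.04, SE 0.0385) nor MT-ND2 (0.01, SE 0.0487) passed the test with MYB, so their signs are uncertain. MT-CO3, MT-ATP8 and MT-ND6 did not pass either. With NMYB, which shares the controls, 3 of the 6 were above 0 and the 7 ranged from -0.37 to -0.14. There MT-ND1 had a value of -0.03 and MT-ND2 of 0.005, and neither passed.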
